A study of Mus musculus with 2 samples.

Results

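The genes described here are Kmt2a and Mllt3, the mouse genes of the proteins joined in the MLL/AF9 fusion, and 7 genes for the cofactors of that fusion and of transcription elongation: Men1, Psip1, Dot1l, Mllt10, Mllt1, Aff1 and Aff4. They were taken by name from the deposited count table, and all 9 were found among its 45318 genes. No rule on their values was used, but earlier results of these data were known when they were chosen. RNA was sequenced from mouse bone marrow leukaemia blasts on a C57Bl/6 background. All blasts came from leukaemic animals, were called MLL/AF9 and GFP by their labels, and were sorted for GFP. The vehicle group was 1 library from animals given vehicle, and the brequinar group was 1 library from animals given brequinar, a small molecule that blocks dihydroorotate dehydrogenase and with it the making of new pyrimidines. Sources used here do not give the animals' age or number, the dose, the time on treatment or how the fusion was introduced. With 1 library per group there is no replicate check and no test between treatments, so every difference below is a difference between those libraries.

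KMT2A, also called MLL, is a histone methyltransferase that keeps Hox genes active in blood progenitors. In leukaemias with MLL fusions, its N-terminal part is joined to a partner protein, most often a member of the machinery that releases paused RNA polymerase II. The N-terminal part binds menin and, through it, the chromatin reader LEDGF, which together hold the fusion on its target genes. Partners such as AF9 (Mllt3) and ENL (Mllt1) bring in the super elongation complex, built on the AFF scaffold proteins and the kinase P-TEFb, and the DOT1L complex, which methylates histone H3 within transcribed genes. Both routes are studied as drug targets in this leukaemia.

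Reads assigned to genes numbered 47935476 (vehicle) and 47950714 (brequinar), and 1 count was worth 0.0202 and 0.0215 CPM, the count scaled to library size. Genes of the labelled cell type were present in both libraries, among them Hoxa9 (238 and 231 CPM, vehicle first here and in every pair below) and Ptprc, the leukocyte antigen CD45 (286 and 538 CPM). Marker levels of other and of maturing cells differed between the libraries. Each of 12 markers of maturing neutrophils was higher by 2-fold or more after brequinar (summed level 1833 and 24985 CPM). Of 12 erythroid markers, 11 were measured and 11 passed 2-fold on the higher side (summed level 27.7 and 124.8 CPM), and of 11 markers of resident macrophages 9 were measured and 7 passed it (598 and 789 CPM in all, most of it Vcam1 and Adgre1). No defining marker of these 3 lists was at 0 in either library. Of 10 markers of myeloid blasts, 1 was at least 2-fold higher (Itgam, 399 and 1234 CPM) and 4 were at least 2-fold lower. The lower markers were Mpo, Kit (180 and 76.5 CPM), Cd34 (140 and 48.8 CPM) and Cebpa (75.4 and 30.3 CPM). Itgam is also 1 of the 12 markers of maturing neutrophils counted above. The sum of the 10 blast markers was 10688 and 5318 CPM. Its largest part was Mpo in the vehicle library (5912 and 979 CPM) and Elane in the brequinar library (3098 and 1702 CPM). These marker levels accompany each difference reported below, and their part in those differences was not tested. In a bulk library, fewer cells of a type and less RNA per cell cannot be told apart.

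None of the 9 genes was at least 2-fold higher or lower in the brequinar library, and 1 of them, Men1, was more than 1.5-fold lower. Among the 11504 measured genes (a mean over both libraries of 1 CPM or more), which include all 9, 6.45% were at least 2-fold higher and 4.40% at least 2-fold lower. At 1.5-fold the shares were 12.7% higher and 12.7% lower, so 1 gene of 9 lay near the background. The log2 ratios of the 9 genes ran from -0.63 to 0.37 with a median of -0.04. The median over all measured genes was 0.00, with 25th and 75th percentiles of -0.30 and 0.29. All 9 genes were expressed well above the limit of detection, with counts between 721 and 9576 and a median of 74.1 and 70.4 CPM, against 30.1 and 30.6 CPM over all measured genes. Their summed level was 697 and 714 CPM.

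**Figure D1:**
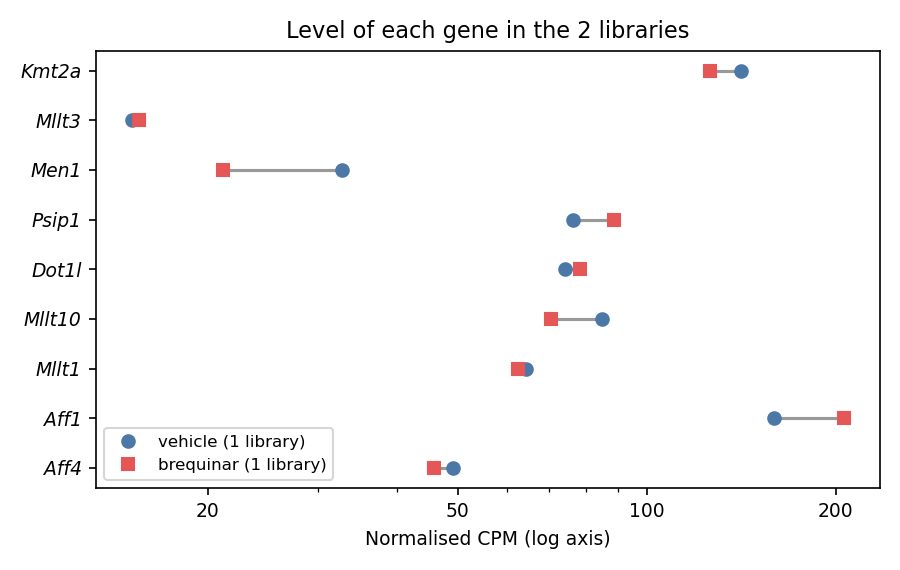
Normalised CPM (log axis) of each of the 9 genes in the vehicle library (blue circles) and the brequinar library (red squares), 1 library each. Men1 stands at 32.7 and 21.1 CPM and Aff1 at 159 and 206 CPM, and the symbols of the other 7 genes lie closer together.

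Intervals given below are exact 95% intervals of the ratio that cover counting error only. Since the reads carry no molecular identifiers, copies of 1 molecule can be counted more than once, and the intervals may be too narrow even for that. By this narrow yardstick 3 of the 9 genes had an interval wholly above a ratio of 1 (Aff1, Psip1 and Dot1l), 4 had one wholly below it (Men1, Mllt10, Kmt2a and Aff4), and 2 had one that included 1 (Mllt3 and Mllt1). At this depth 39.2% of all measured genes had intervals wholly above 1 and 37.7% wholly below, so such an interval was common. The same split held with DESeq2 size factors. Under the other 3 scalings tried, by total counts, by totals without abundant genes and by the upper quartile, Dot1l had an interval that included 1 and Mllt1 one below it, which gave 2 genes above and 5 below.

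**Figure D2:**
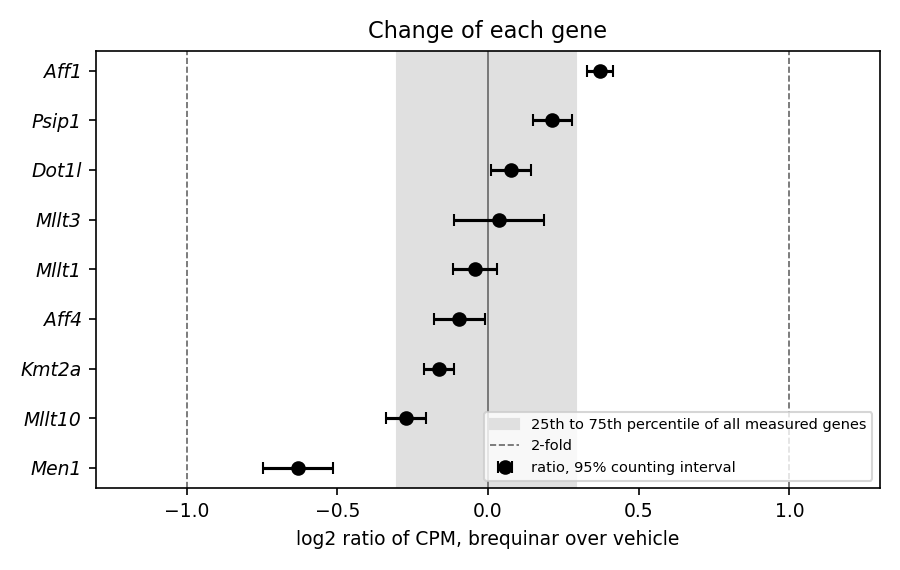
The log2 ratio of CPM (brequinar over vehicle) of each gene with its exact 95% counting interval. Grey marks the 25th to 75th percentile of all measured genes (-0.30 to 0.29) and dashed lines mark 2-fold. Men1 and Aff1 lie outside the grey band, no gene reaches 2-fold, and the signs of Mllt3 and Dot1l turn with total-count scaling.

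The fusion's own genes were both within 1.5-fold. Kmt2a (ENSMUSG00000002028.9, GRCm38 chr9:44803355-44881296, minus strand, 36 exons in its longest transcript) had 6978 and 5853 counts. These correspond to 141 and 126 CPM, 1.12-fold lower (interval 1.08 to 1.16). Mllt3, which encodes AF9, a reader of acylated histone lysines (ENSMUSG00000028496.14, chr4:87769925-88033364, minus strand, 11 exons), had 749 and 721 counts. Its levels of 15.1 and 15.5 CPM gave a ratio of 1.03 (interval 0.924 to 1.14), whose log2 value of 0.04 turned to -0.06 with total-count scaling. Mllt3 was the least abundant of the 9 genes in both libraries. Counts were summed over each gene, so reads of a fusion transcript were not separated from those of the normal alleles, and the share that a fusion contributed to either row was not measured.

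The genes of the chromatin adaptors differed in opposite directions. Men1, which encodes menin, the scaffold bound by the N-terminus of KMT2A (ENSMUSG00000024947.13, chr19:6334979-6340891, plus strand, 9 exons), had 1619 and 982 counts. It stood at 32.7 and 21.1 CPM, 1.55-fold lower in the brequinar library (interval 1.43 to 1.68). This was the lowest ratio of the 9, and 1304 of the 11504 measured genes had a lower one. Psip1, which encodes LEDGF, a PWWP-domain reader of methylated H3K36 (ENSMUSG00000028484.13, chr4:83455680-83486459, minus strand, 16 exons), had 3781 and 4115 counts. Its levels were 76.4 and 88.6 CPM, a ratio of 1.16 (interval 1.11 to 1.21). Men1 was thus lower and Psip1 higher in the brequinar library.

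Of the genes of the DOT1L complex, Mllt10 was lower in the brequinar library and Dot1l was nearly level. Dot1l, the H3K79 methyltransferase (ENSMUSG00000061589.11, chr10:80755206-80795461, plus strand, 28 exons), had 3668 and 3634 counts and stood at 74.1 and 78.2 CPM. Its ratio was 1.06 (interval 1.01 to 1.11), with a log2 value of 0.08 that turned to -0.01 under total-count scaling. Mllt10, which encodes AF10, the DOT1L cofactor needed for higher H3K79 methylation and itself a fusion partner (ENSMUSG00000026743.13, chr2:18055237-18212388, plus strand, 24 exons), had 4200 and 3269 counts. It stood at 84.9 and 70.4 CPM and was 1.21-fold lower (interval 1.15 to 1.26). The enzyme gene and the cofactor gene therefore did not keep the same proportion in both libraries.

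Of the 3 genes here that belong to the super elongation complex, Aff1 was higher in the brequinar library, and Aff4 and Mllt1 had ratios closer to 1. Aff1 encodes AF4, a scaffold of the complex and the most frequent fusion partner in infant lymphoblastic leukaemia (ENSMUSG00000029313.15, chr5:103692374-103855322, plus strand, 20 exons). It had 7881 and 9576 counts, or 159 and 206 CPM, a ratio of 1.29 (interval 1.26 to 1.33), the highest of the 9. Of all measured genes, 9153 had a lower ratio. Aff4, the second AFF scaffold (ENSMUSG00000049470.10, chr11:53350833-53421830, plus strand, 21 exons), had 2428 and 2133 counts. It stood at 49.1 and 45.9 CPM, 1.07-fold lower (interval 1.01 to 1.13). Mllt1, which encodes ENL, the paralogue of AF9 with a YEATS reader domain (ENSMUSG00000024212.8, chr17:56892611-56935415, minus strand, 12 exons), had 3178 and 2895 counts. Its levels of 64.2 and 62.3 CPM gave a ratio of 0.970 (interval 0.922 to 1.02).

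Levels of different genes were compared per kilobase of the longest annotated transcript. Psip1 was the highest in both libraries (23.5 and 27.2 CPM per kb) and Mllt3 the lowest (2.49 and 2.56 CPM per kb), a span of 9.42-fold in the vehicle and 10.7-fold in the brequinar library. In the vehicle library the order below Psip1 was Aff1 (19.1), Mllt1 (17.7), Mllt10 (16.8), Men1 (10.9), Dot1l (10.9), Kmt2a (8.56), Aff4 (4.86) and Mllt3, all in CPM per kb. In that library the counting intervals overlapped between Mllt1 and Mllt10 and between Men1 and Dot1l, and no other neighbours overlapped. In the brequinar library Men1 came below Dot1l and Kmt2a, at 7.04 CPM per kb beside 11.5 for Dot1l and 7.65 for Kmt2a. The intervals of Kmt2a and Men1 overlapped there, as did no other neighbouring pair. When length was taken as all exons of a gene merged, Aff1 came first in both libraries (16.8 and 21.8 CPM per kb) and Psip1 came below Mllt1 in the vehicle library and next to Aff1 in the brequinar library (15.0 and 17.4 CPM per kb), so the order at the top depends on the transcript that is assumed. The span from the highest to the lowest gene was then 13.4-fold and 16.9-fold. With merged exons Men1, Dot1l and Kmt2a stood at 8.53, 8.52 and 8.46 CPM per kb in the vehicle library. The gap between Kmt2a and the other genes of this trio in that library thus also depends on the transcript that is assumed.

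**Figure D3:**
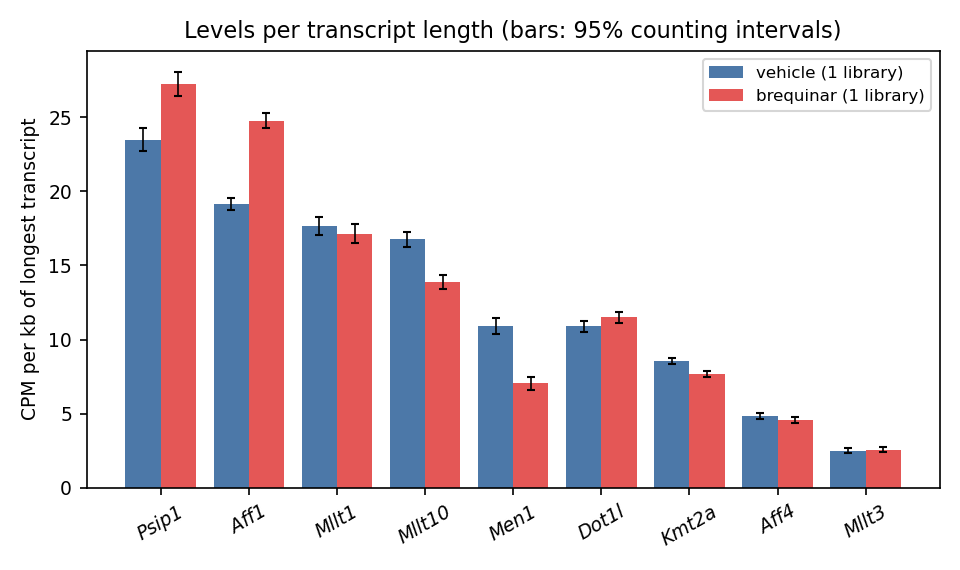
Level of each gene in CPM per kb of its longest transcript, in the vehicle (blue) and brequinar (red) library, 1 library each, with 95% Poisson counting intervals. Psip1 and Aff1 stand highest, Mllt3 lowest, and Men1 stands beside Dot1l in the vehicle library and just under Kmt2a in the brequinar library.

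The proportion of one gene to another does not depend on how the libraries are scaled. Of the 36 pairs among the 9 genes, 31 had a change of proportion whose counting interval excluded 1. At this depth 39.2% of single measured genes had intervals wholly above 1 and 37.7% wholly below, and the 36 pairs reuse 9 ratios. The share over pairs of other genes was not computed, so this count does not set the 9 genes apart. The largest change of proportion was between the genes with the lowest and the highest ratio: relative to Aff1, Men1 was 2.00-fold lower in the brequinar library (interval 1.84 to 2.18). Relative to its binding partner Psip1, Men1 was 1.79-fold lower (interval 1.64 to 1.97), the per-kb proportion moving from 0.464 to 0.258. Kmt2a relative to Men1 was 1.38-fold higher (interval 1.27 to 1.51), from 0.786 to 1.09 per kb. With merged exons the proportion of Kmt2a to Men1 moved from 0.992 to 1.37, and that of Men1 to Psip1 from 0.567 to 0.316.

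The paralogue pairs behaved differently from each other. Aff1 stood at 3.94 times Aff4 per kb in the vehicle library and at 5.45 times in the brequinar library, a 1.38-fold change of proportion (interval 1.29 to 1.48). For merged exons the values were 4.62 and 6.38 times. Mllt3 stood at 0.141 and 0.149 of Mllt1 per kb, a change of 1.06-fold whose interval (0.941 to 1.19) included 1. With merged exons these proportions were 0.0769 and 0.0813. ENL was thus the more abundant YEATS paralogue transcript in both libraries. Dot1l relative to Mllt10 was 1.27-fold higher (interval 1.19 to 1.36). These intervals hold counting error only, and variation between animals or sorts was not measured.

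Some counts are less certain than others. The exons of 3 genes overlap annotated exons of genes on the opposite strand, and sources used here do not give the strand setting of the counting. Psip1 shares 483 exonic bases with Snapc3 (8.85 and 10.6 CPM), and Mllt10 shares 749 with Dnajc1 (39.6 and 41.9 CPM). Kmt2a shares 378 with the antisense gene AC061963.1, which was not analysed here. Men1, Mllt3, Aff1 and Mllt1 overlap no other annotated gene.

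Sequence before a RefSeq start is shown for Men1 and Aff1, the genes with the lowest and the highest ratio. RefSeq promoter windows (GRCm38.p6) were matched for 8 of the 9 genes, all but Psip1. The Men1 window ends just before the annotated start of the gene, and the Aff1 window lies before an internal start, 61.8 kb inside the annotated gene. The 250 bases before the first listed start follow, 5′ to 3′, with CCAAT and GGGCGG on either strand in capitals.
Men1 (chr19:6334729-6334978, plus strand): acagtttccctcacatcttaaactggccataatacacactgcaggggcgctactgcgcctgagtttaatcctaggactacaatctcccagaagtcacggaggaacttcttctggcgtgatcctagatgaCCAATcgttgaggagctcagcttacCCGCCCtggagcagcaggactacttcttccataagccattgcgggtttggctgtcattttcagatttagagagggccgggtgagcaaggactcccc
Aff1 (chr5:103753912-103754161, plus strand): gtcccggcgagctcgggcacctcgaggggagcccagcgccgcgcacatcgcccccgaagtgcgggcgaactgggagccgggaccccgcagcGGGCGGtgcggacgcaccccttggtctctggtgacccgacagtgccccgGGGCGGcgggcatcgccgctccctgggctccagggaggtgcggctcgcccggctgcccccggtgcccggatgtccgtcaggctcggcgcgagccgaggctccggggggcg
The Men1 window was 52.0% G and C with 8 CpG dinucleotides, and the Aff1 window 78.8% with 35. Men1 held 1 CCAAT and 1 GGGCGG, and Aff1 held 2 GGGCGG and no CCAAT. Over the 8 genes, 6 windows held GGGCGG and 3 held CCAAT, against 32.7% and 33.9% of all 32851 windows of that length. That background counted every listed window, whereas each of the 8 genes gave only its first listed window, so the sets compared are unlike. TATAAA was in none of the 8 (12.4% of all windows) and CACGTG in 1, that of Aff4 (6.02%). Such matches describe letters and do not show that a factor binds.

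The wider machinery was read from 6 lists of partner genes, which together gave 101 measured genes. Of these, 3 were at least 2-fold higher and 3 lower, beside 6.45% and 4.40% of all measured genes. Calls in the 6 lists together were thus no more frequent than in the background. They were spread unevenly, as 4 of the 6 calls were in 1 list of 15 measured genes, those that MLL fusions activate. The list of the KMT2 family and the COMPASS subunits, which carry out H3K4 methylation, also held associated genes such as Tasp1 and Ppie. It had 20 of 20 genes measured and none past 2-fold. Their median log2 ratio of 0.01 turned to -0.08 with total-count scaling. The genes with the largest absolute log2 ratios were Hcfc2 (33.6 and 46.9 CPM), Ppie (57.2 and 43.2 CPM), Setd1a (26.2 and 20.1 CPM) and Ash2l (94.9 and 74.0 CPM). Of the core subunits that KMT2A shares with its relatives, Ash2l was thus lower in the brequinar library. Wdr5 (189 and 214 CPM), Rbbp5 (62.9 and 71.8 CPM) and Dpy30 (71.9 and 88.0 CPM) were higher. Tasp1, the protease that cleaves KMT2A, was level at 19.9 and 19.8 CPM.

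In the rest of the super elongation complex and P-TEFb, 14 of 17 genes were measured, 1 was at least 2-fold higher and none lower, with a median log2 ratio of 0.01 that turned to -0.08 with total-count scaling. The higher gene was Aff2, another AFF scaffold (9.80 and 23.4 CPM, a ratio of 2.39 with interval 2.14 to 2.66). Ell2, an elongation factor of the complex, stood at 7.80 and 13.9 CPM (ratio 1.79, interval 1.57 to 2.03), whereas its relative Ell stood at 16.9 and 18.9 CPM. Hexim1 and Hexim2, inhibitors of P-TEFb, had levels of 44.4 and 59.4 CPM and of 2.63 and 1.51 CPM, respectively. The kinase gene Cdk9 (106 and 99.0 CPM) and its cyclin gene Ccnt1 (56.5 and 51.5 CPM) were both within 1.5-fold. Aff1 and Aff2 were thus higher in the brequinar library while Aff4 was not. Aff3, Ell3 and Eaf2 were below 1 CPM, and Ell3 had no count in either library, which allows up to 0.0606 and 0.0646 CPM (3 counts).

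Pausing, PAF1 and other elongation factors had 20 of 20 genes measured and none past 2-fold, with a median log2 ratio of -0.02. The largest differences were in 3 PAF1 complex genes, Leo1 (35.7 and 49.4 CPM), Wdr61 (53.2 and 40.0 CPM) and Cdc73 (65.0 and 82.1 CPM), and in the elongation factor gene Tcea1 (70.6 and 90.5 CPM). The PAF1 genes therefore differed in both directions.

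Recruitment partners and further DOT1L complex genes had 16 of 17 measured and none past 2-fold, with a median log2 ratio of -0.08. Jund, a transcription factor that binds menin, came closest at 66.4 and 34.4 CPM, 1.93-fold lower (interval 1.82 to 2.05), and passed 2-fold with total-count scaling. Mllt6, which encodes AF17, the relative of AF10 in the DOT1L complex, stood at 4.35 and 2.45 CPM, 1.77-fold lower (interval 1.40 to 2.24). Hdgfl2, which encodes a relative of LEDGF, stood at 59.2 and 46.2 CPM, against the higher level of Psip1 in the brequinar library. Nsd1, an H3K36 methyltransferase, stood at 128 and 94.1 CPM.

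The list of genes that other MLL fusions use as partners left out those in the lists above, such as Ell and Mllt6. It also left out those among the 9 genes, such as Mllt1, Mllt10 and Aff1 (log2 ratios -0.04, -0.27 and 0.37). Of the 17 genes in the list, 16 were measured, 1 at least 2-fold higher and none lower. Their median log2 ratio, which does not cover all fusion partner genes, was 0.34, beside 0.00 over all measured genes. Gas7, a cytoskeletal adaptor, led them (48.3 and 174.1 CPM, ratio 3.61 with interval 3.45 to 3.78), followed by Afdn (1.52 and 2.71 CPM), Picalm, which acts in clathrin-coated vesicles (85.0 and 138.8 CPM), and Arhgef12 (0.909 and 1.29 CPM, interval 0.949 to 2.14, which includes 1). Among genes that MLL fusions activate, 15 of 16 were measured, with 1 higher and 3 lower and a median of -0.18. Of all measured genes, 6.45% were higher and 4.40% lower by that 2-fold rule. At a mean of 5 CPM or more, 1 gene in all was past 2-fold, so most of this count came from genes at low levels, and Mef2c passed the filter only through the library where it was higher. Flt3 (4.49 and 1.44 CPM) and Bcl2 (9.05 and 3.60 CPM) were among the lower genes and Mef2c (0.728 and 2.30 CPM) was the higher one, whereas Hoxa9 and Meis1 (71.6 and 87.4 CPM) lay within 2-fold.

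**Figure D4:**
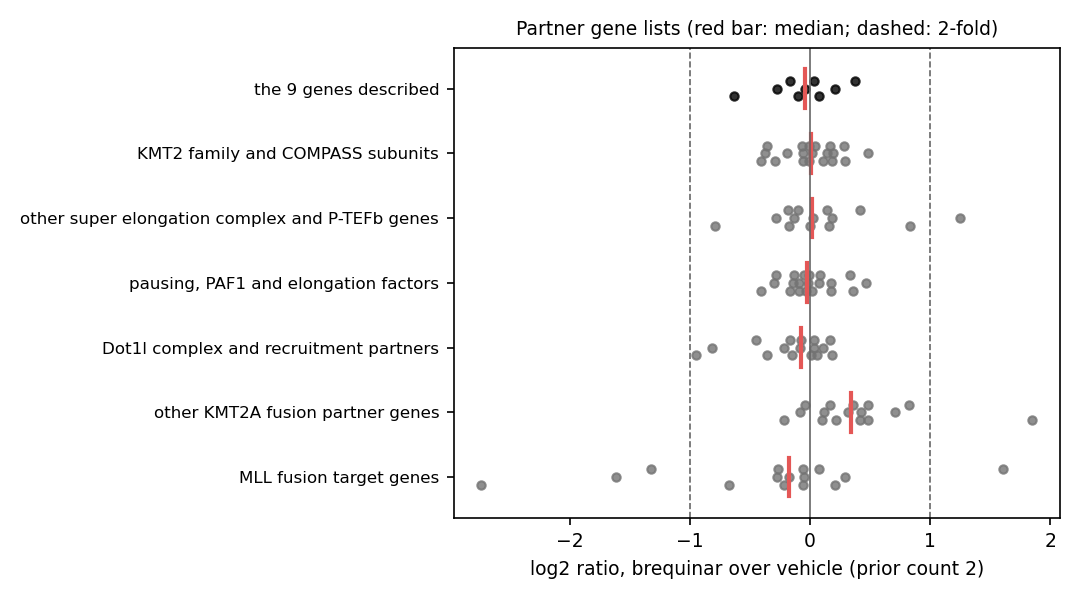
Log2 ratio (brequinar over vehicle, prior count 2) of each measured gene in the 9-gene group and in the 6 partner lists, with each median as a red bar and 2-fold as dashed lines. The 9 genes lie between -0.63 and 0.37, and the genes past 2-fold include Aff2, Gas7, Flt3, Bcl2 and Mef2c. The medians of the COMPASS and super elongation lists turn sign with total-count scaling.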

How the data were processed

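Gene expression was measured in 2 libraries (1 vehicle, 1 brequinar) of sorted leukaemia blasts, made with poly(A) selection that keeps strand and read as paired ends of 101 bases, per the labels' protocols. The deposited values are raw read counts per gene, made by the authors. Per the submitters' processing notes, the tools included STAR 2.4.2a and Picard 1.99 and 2.2.4, with build mm10; sources used here do not give the counting program, its strand setting or its annotation. The 4 lines that name no gene held 21.6% and 20.2% of reads (vehicle, then brequinar) and were left out.

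Symbols, positions and lengths came from GENCODE mouse release 21 (GRCm38), by identifier without version; 44585 of 45318 identifiers had a symbol. Library sizes were corrected over all genes with edgeR's TMM method (factors 1.03 and 0.969; edgeR 4.0.16 in R 4.3.3). The log2 ratio used a prior count of 2, and genes averaging 1 CPM or more over both libraries counted as measured. Ratios and folds in the text use CPM without the prior. Ratio intervals are Clopper-Pearson intervals conditional on the summed count, proportions between genes use the exact conditional odds ratio, and levels use Poisson intervals, all at 95% and in Python 3.11.15 with scipy 1.17.1. A count of 0 was given an upper limit of 3 counts. The procedure was tested on simulated counts that held counting error only. That test does not bear on variation between animals or on molecules counted more than once. No test between treatments was made.

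The genes and lists were chosen with earlier results of these data known. The text names all 9 genes, the 4 measured members of each partner list with the largest absolute log2 ratio, and a fixed set of core subunits, except for a pair of genes that are not reported here. Alternatives were scaling by total counts, by the upper quartile, by size factors of DESeq2 1.42.0 or by totals that left out mitochondrial genes and the top 50 genes, and other filters, prior counts, thresholds and lengths. Of 8 lists of cell type markers, those not described in the text had these summed levels: B cells 31.9 and 18.4 CPM (mostly Cd79b, 26.2 and 9.86), T and NK cells 1.01 and 2.99, megakaryocytes 2.79 and 9.15, and stroma and endothelium 27.1 and 9.64 (mostly Pecam1, 25.1 and 6.76).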

Additional observations from a re-analysis of the deposited data

How the results depend on the processing

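No paired analysis was possible because each group holds 1 library. None of the 9 genes passed 2-fold in either direction under any of the 4 other scalings, the 2 other prior counts, the 2 other filters or when the whole counting interval had to lie beyond 2-fold. With a 1.5-fold threshold 1 was lower (Men1) and 0 were higher. The log2 ratio of Men1 ran from -0.72 to -0.63 and that of Aff1 from 0.28 to 0.37 over scalings and prior counts. Those of Dot1l (-0.01 to 0.08) and Mllt3 (-0.06 to 0.04) turned sign under the 2 scalings by totals. Among the partner lists, the count past 2-fold was 1 (Jund) in place of 0 for recruitment partners under both scalings by totals, was 2 for the super elongation list without a filter, where Aff3 entered, and was 1 for fusion targets at a mean of at least 5 CPM, where fewer genes were tested. Each of the 9 genes had at least 721 counts in each library. Depth limits the partner genes near 1 CPM, and no comparison has a replicate.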
